A study of Mus musculus with 7 samples.

Results

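The miR-17-92 cluster is a group of 6 microRNA hairpins cut from 1 primary transcript, the long non-coding RNA Mir17hg. The 10 arms described here, out of 950 mature miRNA names in the deposited count table, were taken by name: mmu-miR-17-5p, mmu-miR-17-3p, mmu-miR-18a-5p, mmu-miR-18a-3p, mmu-miR-19a-3p, mmu-miR-19b-3p, mmu-miR-20a-5p, mmu-miR-20a-3p, mmu-miR-92a-1-5p and mmu-miR-92a-3p. Of these, 9 reached the mean of 10 CPM (counts divided by the library's total, times 1000000) that was asked of a miRNA before its level was tested. The arm mmu-miR-20a-3p had 1 to 40 counts in the Ago2 libraries and is given as counts.

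The RNAs were pulled down with anti-Flag antibody from mouse embryonic stem (ES) cells that have no Argonautes of their own and carried Flag-tagged Ago2. There were 7 libraries, 1 for each group: the Ago2 mutants K566A, R792A_C793A, Q548A, GKT_GKGT and PGKTP_AAAAA, wild-type (WT) Ago2, and an empty control, all in the same Argonaute-null background. The promoter driving Flag-Ago2 and the number of clones behind each group were not stated in the labels. With 1 library a group, no difference between conditions has a replicate check, and the intervals below cover counting error only.

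Argonaute proteins keep 1 strand of each miRNA duplex as the guide and discard the other. The 5′ phosphate of the guide sits in a pocket at the border of the MID and PIWI domains, where K566 and Q548 of the MID domain and R792 of the PIWI domain lie. A loop of the MID domain, which holds the residues named in the PGKTP and GKT labels, faces the first base of the guide and favours U or A there. The duplex end that is less tightly paired also biases which arm is kept. The miR-17-92 miRNAs are abundant in ES cells and many tumours, are switched on by MYC and promote proliferation and survival.

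The arms fall into families by seed, bases 2 to 8 from the 5′ end, which set what a guide pairs with. The mature sequences below are shown because the first base, the seed and the arm are the features along which the libraries are compared. They come from RefSeq (GRCm38.p6), where 10 of 10 arms were matched by name; the seed is in capitals and the first letter is the base held by the MID domain.
mmu-miR-17-5p: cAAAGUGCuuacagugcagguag
mmu-miR-20a-5p: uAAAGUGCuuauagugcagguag
mmu-miR-18a-5p: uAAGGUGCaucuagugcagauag
mmu-miR-19a-3p: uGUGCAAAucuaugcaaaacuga
mmu-miR-19b-3p: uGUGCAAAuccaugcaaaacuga
mmu-miR-92a-3p: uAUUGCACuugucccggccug
mmu-miR-17-3p: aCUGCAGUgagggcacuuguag
mmu-miR-18a-3p: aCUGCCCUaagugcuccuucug
mmu-miR-20a-3p: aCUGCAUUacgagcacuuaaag
mmu-miR-92a-1-5p: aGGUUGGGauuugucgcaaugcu
The arms usually kept as guides begin with U (5 arms) or, in miR-17-5p, with C. The 4 arms usually discarded begin with A. Counting positions from 1 at the 5′ end, miR-17-5p and miR-20a-5p share the seed AAAGUGC and differ by C1U and C12U. The miR-19 arms share GUGCAAA and differ by U11C alone.

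In the coordinates of the deposited table (mm9) the cluster runs along chromosome 14, from miR-17-5p at chr14:115442906-115442928 to miR-92a-3p at chr14:115443698-115443718. In GRCm38, GENCODE M21 places all 10 arms in an exon of the lincRNA Mir17hg at chr14:115042879-115046727, whereas RefSeq starts the same gene downstream, at chr14:115044390-115046728, and includes only the miR-92a-1 arms. The mature miR-19b-3p and miR-92a-3p are also made from the paralog cluster on the X chromosome, listed at chrX:50095168-50095190 and chrX:50095031-50095051. Their counts at both loci were equal within 1% or 3 counts, so reads of the 2 sources cannot be told apart and each name was counted once.

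Depth, with each mature name counted once, was 14914050 counts in K566A and between 24921543 and 94842502 in the other Ago2 libraries, with 94842502 in WT. The empty control had 33461 counts, 446 times fewer than K566A, so that 1 of its counts stands for a wide range of levels. A single miRNA, miR-292-5p, took 21.7% of the counts in K566A but 57.3% to 70.5% in the other mutants, 63.7% in WT and 65.6% in the empty control. CPM values depend on this share, since it takes room from all other miRNAs. The median log2 ratio to WT over all 337 miRNAs tested was 0.91 in K566A, 0.43 in R792A_C793A, 0.07 in Q548A, −0.29 in GKT_GKGT and −0.55 in PGKTP_AAAAA. Scaling by median-of-ratios size factors would add −0.84 to every log2 ratio of K566A, −0.36 to those of R792A_C793A, −0.10 to those of Q548A, 0.18 to those of GKT_GKGT and 0.62 to those of PGKTP_AAAAA. All 8 markers of ES cells looked for (the miR-290 and miR-302 families) were above 0 in each Ago2 library, with a summed level of 60198 to 373901 CPM in mutants and 123209 CPM in WT. Of 5 fibroblast markers, 4 or 5 were above 0, summing to 479 to 3990 CPM in mutants and 1027 CPM in WT. Nearly all of that sum was miR-143-3p, and miR-214-3p was at or near 0. The part of these markers in the results was not tested.

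The 10 arms together reached 14273 CPM in K566A, 5090 in R792A_C793A, 3572 in Q548A, 3290 in GKT_GKGT and 3591 in PGKTP_AAAAA, against 3179 CPM in WT. K566A stood apart, and the other mutants were within 1.60-fold of WT. As a share of counts other than miR-292-5p, the cluster made up 1.82% in K566A, 1.19% in R792A_C793A, 1.03% in Q548A, 1.12% in GKT_GKGT and 1.18% in PGKTP_AAAAA, against 0.875% in WT. Measured this way too, every mutant library lay above the WT library. A CPM value in a pulldown can differ through the amount of the miRNA per cell or the amount of it bound to Ago2. It can also differ through the other miRNAs that make up the library's total. These cannot be told apart here.

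Within each Ago2 library, miR-20a-5p and miR-92a-3p were the most abundant arms of the cluster and miR-17-5p the third. In K566A, miR-20a-5p made up 42.7% of the cluster's counts, miR-92a-3p 35.3% and miR-17-5p 9.73%, against 31.9%, 38.9% and 16.2% in WT. The order of the leading arms changed between libraries. The lead was held by miR-20a-5p in K566A, Q548A and GKT_GKGT and by miR-92a-3p in R792A_C793A, PGKTP_AAAAA and WT, each time beyond counting error. Neighbours whose counts could not be ordered were miR-18a-3p and miR-19a-3p in Q548A, miR-19b-3p, miR-18a-5p and miR-92a-1-5p in R792A_C793A, and miR-18a-3p and miR-92a-1-5p in WT.

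**Figure D1:**
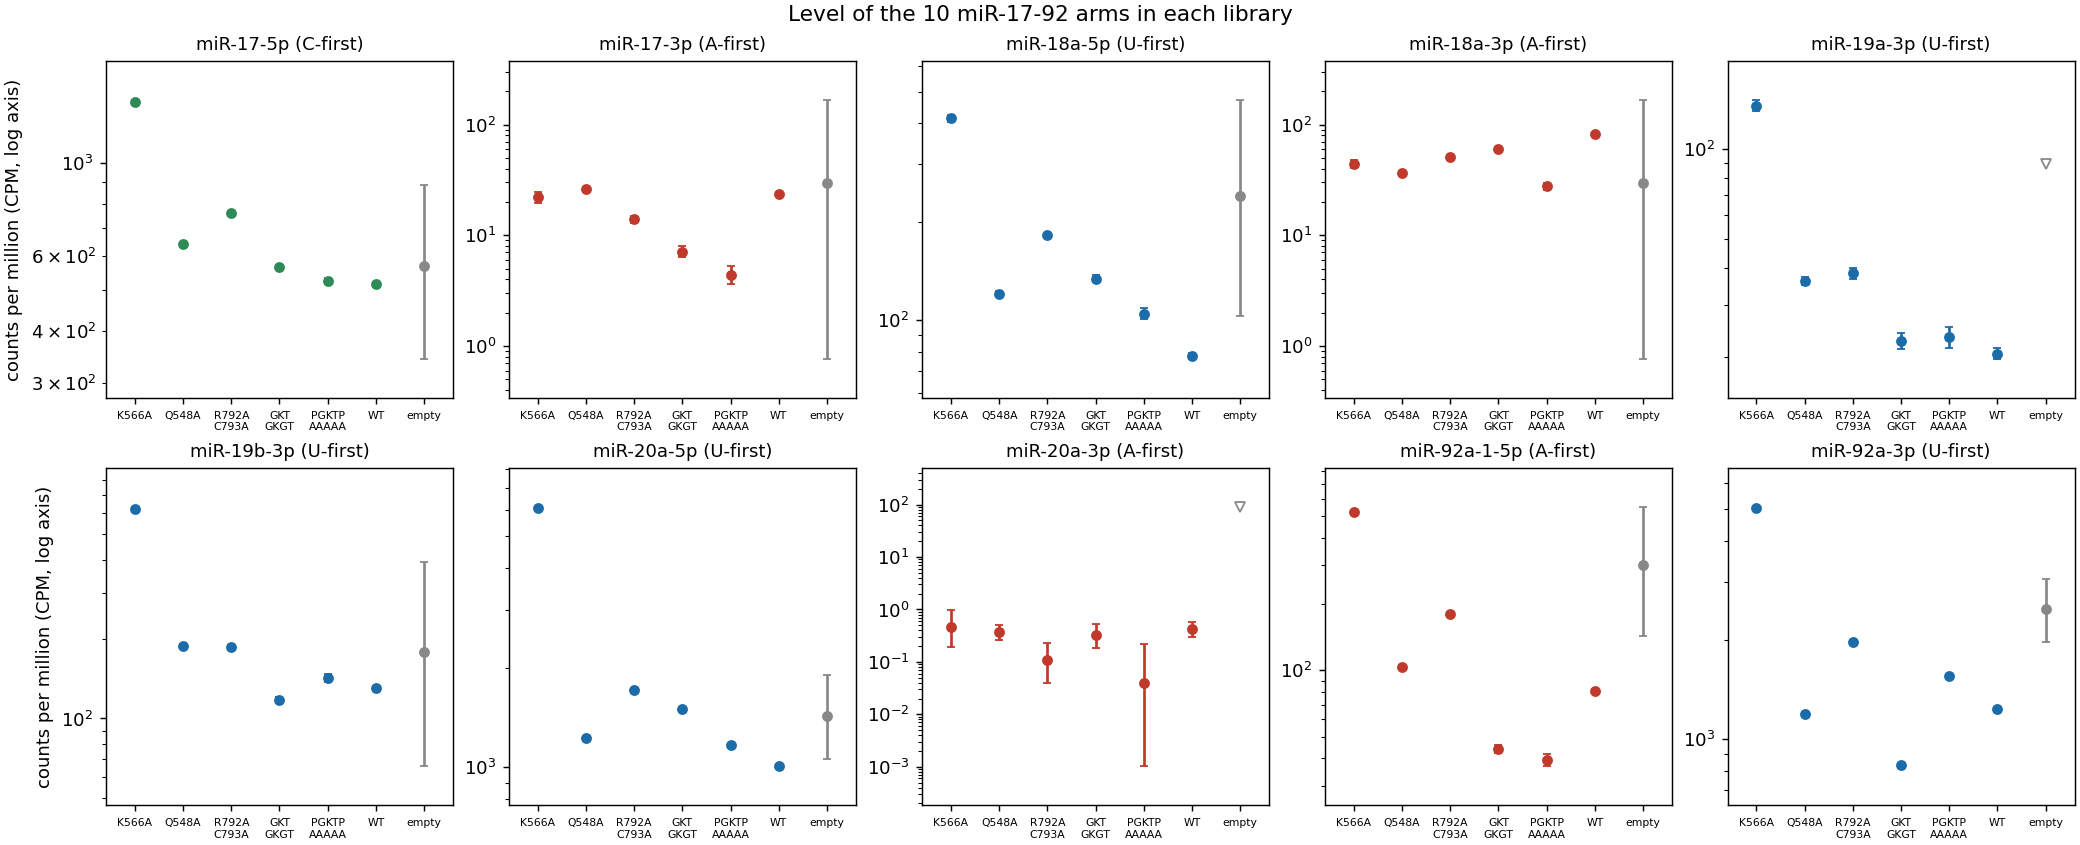
Level of each arm (CPM, log axis, a panel per arm) in the 5 mutants, WT and the empty control, 1 library each; bars are 95% Poisson intervals, and an open triangle marks the level of 3 counts where the count was 0. The K566A point is the highest of the 6 Ago2 libraries for every U-first arm, for miR-17-5p and for the A-first miR-92a-1-5p. It is also the highest for miR-20a-3p, on 7 counts and with an interval that overlaps that of WT. miR-17-3p is highest in Q548A at 26.4 CPM and miR-18a-3p in WT at 81.3 CPM.

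A miRNA was called higher or lower than WT where the whole 95% interval of its ratio lay past 2-fold. In K566A, 7 of 9 arms tested were called higher and none lower, beside 47.5% of all miRNAs called higher and 19.6% called lower. In Q548A, none was higher and 1 lower, beside 1.78% and 4.45% of all. In R792A_C793A, 2 were higher and none lower, beside 15.7% and 6.82%. The counts called higher in these 3 mutants had the same order as the shares over all miRNAs. With size factors, or with totals that leave out miR-292-5p, no arm was called higher in R792A_C793A. In GKT_GKGT, none was higher and 1 lower, beside 11% and 11.9%. In PGKTP_AAAAA, none was higher and 2 lower, beside 7.12% and 33.5%.

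Among the U-first guides, the 1 call outside K566A was miR-18a-5p in R792A_C793A. miR-20a-5p, a member of the miR-17 seed family, had 6090 CPM in K566A, 1712 in R792A_C793A, 1226 in Q548A, 1504 in GKT_GKGT and 1171 in PGKTP_AAAAA, against 1013 CPM in WT. Every mutant was above WT, and only K566A passed the 2-fold call, with a log2 ratio of 2.59 (95% interval 2.57 to 2.60). miR-18a-5p, a guide related to the miR-17 family by a seed that differs in 1 base, had 414 CPM in K566A, 182 in R792A_C793A, 121 in Q548A, 134 in GKT_GKGT and 105 in PGKTP_AAAAA, against 77.8 CPM in WT. It too was lowest in WT, and it was called higher in K566A (log2 ratio 2.41, 2.36 to 2.46) and in R792A_C793A (1.23, 1.18 to 1.27). The R792A_C793A call was not reached with size factors, where the log2 ratio was 0.86.

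The miR-19 arms, known in mouse lymphoma models as the cluster's main oncogenic guides, had similar profiles. miR-19b-3p had 619 CPM in K566A, 186 in R792A_C793A, 187 in Q548A, 117 in GKT_GKGT and 142 in PGKTP_AAAAA, against 130 CPM in WT. For miR-19a-3p the levels were 140 CPM in K566A, 38.4 in R792A_C793A, 36.1 in Q548A, 22.7 in GKT_GKGT and 23.4 in PGKTP_AAAAA, against 20.6 CPM in WT. Both were called higher in K566A alone, with log2 ratios of 2.25 for miR-19b-3p and 2.77 for miR-19a-3p. Over the 6 Ago2 libraries these 2 arms were the most alike of any pair in the cluster, with a distance of 0.44 between their log2 profiles. The next closest pair was miR-18a-5p and miR-20a-5p at 0.53, and the farthest apart were miR-18a-3p and miR-92a-1-5p at 3.28.

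miR-92a-3p, a guide of the seed family that includes miR-25 and miR-32, had 5034 CPM in K566A, 1969 in R792A_C793A, 1195 in Q548A, 834 in GKT_GKGT and 1552 in PGKTP_AAAAA, against 1235 CPM in WT. In GKT_GKGT it was the U-first arm farthest below WT, with a log2 ratio of −0.57 (−0.58 to −0.55), a difference short of the 2-fold call. It was called higher in K566A, at 2.03, but with totals that leave out miR-292-5p the value was 0.92 and not called. Its mean-centred log2 profile was closest to those of miR-96-5p (distance 0.40), miR-26a-5p (0.40) and miR-27a-3p (0.46) among 328 other miRNAs, whose median distance was 2.17.

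miR-17-5p, the single C-first guide, had 1388 CPM in K566A, 759 in R792A_C793A, 640 in Q548A, 566.02 in GKT_GKGT and 525 in PGKTP_AAAAA, against 516 CPM in WT. The PGKTP_AAAAA and WT libraries could not be told apart (log2 ratio 0.03, interval −0.002 to 0.05). In K566A miR-17-5p was called higher with a log2 ratio of 1.43, which was less than that of any U-first arm, and with size factors it was 0.59 and no longer called. Its ratio to miR-20a-5p, which has the same seed and a U in first place, was 0.228 in K566A, 0.443 in R792A_C793A, 0.522 in Q548A, 0.376 in GKT_GKGT and 0.449 in PGKTP_AAAAA, against 0.509 in WT. This ratio does not depend on the scaling of the libraries, and it was below the WT value in every mutant but Q548A. The profiles nearest to miR-17-5p were those of miR-10b-5p (0.38), miR-467a-5p (0.46) and miR-185-5p (0.49).

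The A-first arms behaved differently from one another. miR-17-3p, the passenger of miR-17-5p, had 21.99 CPM in K566A, 13.9 in R792A_C793A, 26.4 in Q548A, 7.13 in GKT_GKGT and 4.37 in PGKTP_AAAAA, against 23.6 CPM in WT. It was low in the mutants of the MID loop, where it was called lower with log2 ratios of −1.73 (−1.89 to −1.57) in GKT_GKGT and −2.43 (−2.72 to −2.16) in PGKTP_AAAAA. With size factors it was also called lower in R792A_C793A, at −1.13.

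miR-18a-3p, the passenger of miR-18a-5p, had 43.99 CPM in K566A, 51.2 in R792A_C793A, 36.8 in Q548A, 60.7 in GKT_GKGT and 27.8 in PGKTP_AAAAA, against 81.3 CPM in WT. All mutants were below WT. The arm was called lower in Q548A (log2 ratio −1.14, −1.20 to −1.09) and PGKTP_AAAAA (−1.55, −1.66 to −1.44). With size factors the PGKTP_AAAAA value was −0.93 and not called, and the K566A value was −1.73 and called lower. Against the median of the other Ago2 libraries the arm was at −0.48 in Q548A and −0.88 in PGKTP_AAAAA, both short of 2-fold, and at 0.22 in R792A_C793A and 0.46 in GKT_GKGT, so its common direction rests on the WT library.

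miR-92a-1-5p, the passenger of miR-92a-3p at this locus, had 521 CPM in K566A, 179 in R792A_C793A, 103 in Q548A, 43.96 in GKT_GKGT and 39.2 in PGKTP_AAAAA, against 80.5 CPM in WT. Unlike miR-17-3p and miR-18a-3p, it was called higher in K566A, at 2.69 (2.65 to 2.74), and in R792A_C793A, at 1.15 (1.11 to 1.20). With size factors its R792A_C793A value was 0.79 and not called. Among A-first miRNAs described further below, miR-363-3p was also called higher in both mutants (2.45 in K566A, 1.20 in R792A_C793A). The scarce miR-19b-1-5p, which was not tested, was past 2-fold in both (5.67 in K566A, 2.50 in R792A_C793A). miR-25-5p (1.60) and miR-92a-2-5p (5.23) were called higher in K566A but not in R792A_C793A, and miR-93-3p and miR-92b-5p in neither. Other scarce A-first arms were not tested either. Of these, miR-20b-3p (1.76) and miR-19b-2-5p (4.33) had the whole interval past 2-fold in K566A alone, and miR-106a-3p in neither. Apart from miR-363-3p and miR-19b-1-5p, these arms were looked up after their values were seen. In both loop mutants miR-92a-1-5p was below WT, at −0.87 in GKT_GKGT and −1.04 (−1.14 to −0.94) in PGKTP_AAAAA, without passing the call. miR-20a-3p was the scarcest arm, with 7 counts in K566A, 6 in R792A_C793A, 35 in Q548A, 16 in GKT_GKGT and 1 in PGKTP_AAAAA, against 40 counts in WT.

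**Figure D2:**
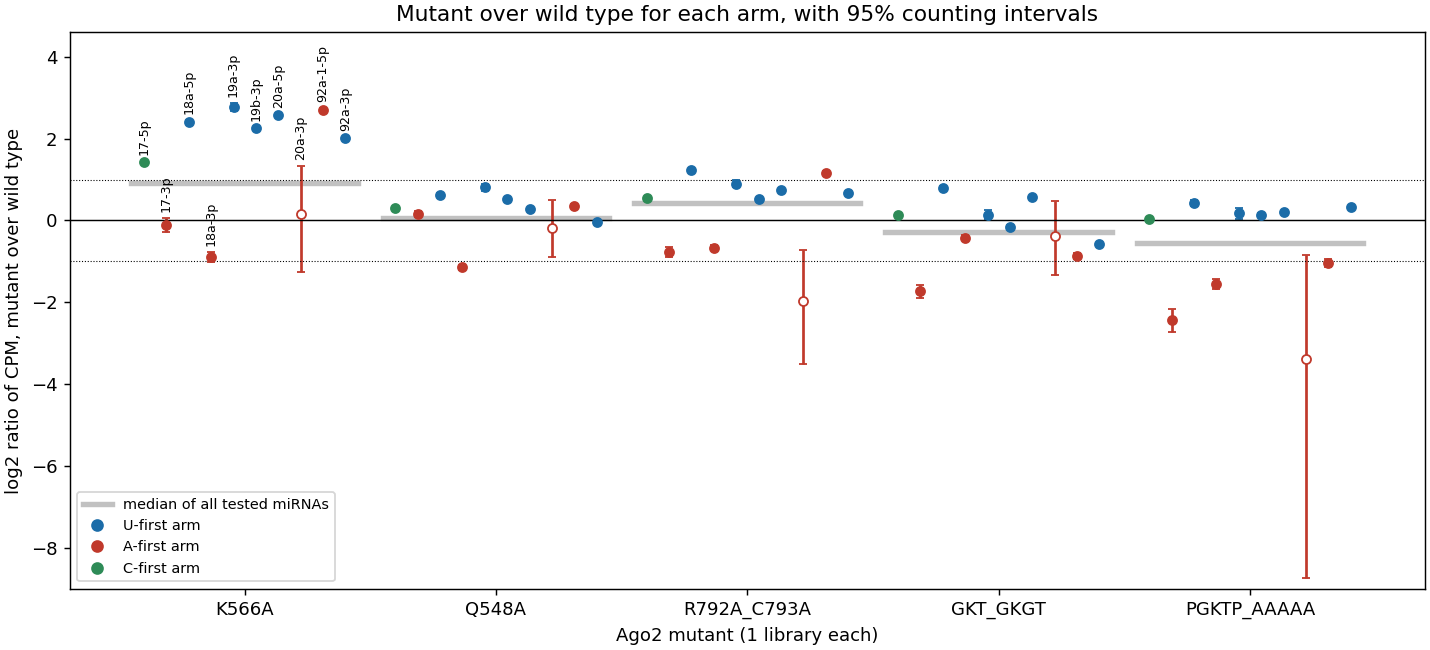
Log2 ratio of CPM, mutant over WT, for the 10 arms in each mutant, coloured by first base and drawn in the order named in the K566A group; bars are 95% counting intervals, dotted lines mark 2-fold, and grey bars give the median of all 337 miRNAs tested. The open point is miR-20a-3p, which was not tested. The median of the 5 U-first arms was 2.41 in K566A and 0.21 in PGKTP_AAAAA. That of the 3 A-first arms tested was −0.10 in K566A (range −0.89 to 2.69) and −1.55 in PGKTP_AAAAA (range −2.43 to −1.04). Among the 10 arms the U-first ones are usual guides and the A-first ones usual passengers, so first base and role cannot be told apart.

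Because the arms of 1 hairpin come from the same precursor and the same library, their ratio is free of the library's scaling. It is also free of the amount of precursor, except that miR-92a-3p and miR-19b-3p each have a second precursor. It was compared for the 4 hairpins of which both arms are among the 10 (miR-17, miR-18a, miR-20a and miR-92a-1), as the usual guide over its A-first partner. The miR-19b-1 hairpin, whose 5p arm is not among the 10 and which was called lower in K566A, is given after them. For the 404 hairpins tested in all, the arm with more counts over the 6 Ago2 libraries was set over the other arm. In the 4 hairpins that arm is the usual guide. The 404 needed only 100 counts over both arms and these libraries, and shallow hairpins have wider intervals and are called less readily. The ratio was called higher in 3 of 4 hairpins in K566A, beside 18.6% of the 404. It was called higher in 1 of 4 in Q548A, beside 5.45% of all, in 3 of 4 in R792A_C793A, beside 11.9%, and in 2 of 4 in GKT_GKGT, beside 11.9%. In PGKTP_AAAAA all 4 were called higher, beside 18.1%. None of the 4 was called lower in any mutant, beside 19.6% of all hairpins in K566A, 8.42% in R792A_C793A, 3.71% in Q548A, 17.3% in GKT_GKGT and 6.68% in PGKTP_AAAAA. The median log2 change over the 4 was 1.94 in K566A, 1.61 in R792A_C793A, 0.31 in Q548A, 1.07 in GKT_GKGT and 2.22 in PGKTP_AAAAA, beside −0.28 in K566A, −0.01 in R792A_C793A, 0.22 in Q548A, −0.40 in GKT_GKGT and −0.04 in PGKTP_AAAAA over all hairpins. All 5 comparisons share the WT library, so a feature of that library enters each of them.

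The hairpin with the most even arms was miR-18a. The 3p arm made up 9.60% of its counts in K566A, 22.0% in R792A_C793A, 23.4% in Q548A, 31.2% in GKT_GKGT and 20.9% in PGKTP_AAAAA, against 51.1% in WT (95% exact binomial interval 50.3% to 51.9%). The WT library stood apart from all 5 mutants: in it the 3p arm narrowly outnumbered the 5p arm, with 7712 against 7375 counts, whereas the 5p arm led in each mutant. The 5p over 3p ratio was 9.84 times that of WT in K566A, 3.43 times in Q548A, 3.71 times in R792A_C793A, 2.31 times in GKT_GKGT and 3.94 times in PGKTP_AAAAA, all called higher. In the empty control the counts were 8 for the 5p arm and 1 for the 3p arm, a 3p share of 11.1% (0.281% to 48.2%) whose interval lies below the WT share. Against the median of the other 5 Ago2 libraries instead of WT, the log2 change was 1.52 in K566A, 0.11 in R792A_C793A, −0.11 in Q548A, −0.69 in GKT_GKGT and 0.20 in PGKTP_AAAAA. The common direction in the mutants thus rests on the WT library, and K566A was the mutant that remained over 2-fold away from the middle of the Ago2 libraries.

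In the miR-17 hairpin the 3p arm made up 1.56% of counts in K566A, 1.799% in R792A_C793A, 3.95% in Q548A, 1.24% in GKT_GKGT and 0.826% in PGKTP_AAAAA, against 4.38% in WT. Q548A lay close to WT, and the other 4 were lower. The log2 change of the 5p over 3p ratio was 1.53 (1.36 to 1.71) in K566A, 1.32 (1.20 to 1.44) in R792A_C793A, 0.15 in Q548A, 1.86 (1.70 to 2.03) in GKT_GKGT and 2.45 (2.18 to 2.75) in PGKTP_AAAAA, called higher in all but Q548A. Against the median of the other Ago2 libraries the log2 change was 0.21 in K566A, −0.21 in R792A_C793A, −1.38 in Q548A, 0.54 in GKT_GKGT and 1.13 in PGKTP_AAAAA, so that of the 4 called changes only the one in PGKTP_AAAAA stayed over 2-fold.

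In the miR-20a hairpin the 3p arm never exceeded 0.0416% of counts, its share in WT. The log2 change was 2.35 (1.26 to 3.84) in K566A, 2.64 (1.49 to 4.26) in R792A_C793A and 3.04 (1.04 to 8.94) in PGKTP_AAAAA, all called higher on 7, 6 and 1 counts of the 3p arm. These values depend on the pseudocount: with 5 in place of 0.5 they were 1.83 in K566A, 2.03 in R792A_C793A and 1.19 in PGKTP_AAAAA. In Q548A (0.46) and GKT_GKGT (0.93) the change was not called. Against the median of the other Ago2 libraries the log2 change was 1.42 in K566A, 1.71 in R792A_C793A and 2.10 in PGKTP_AAAAA. It was −1.89 in Q548A and −1.42 in GKT_GKGT, the other way from the change against WT.

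The miR-92a-1 hairpin went another way. Its A-first arm, here the 5p, made up 9.38% of counts in K566A, 8.35% in R792A_C793A, 7.96% in Q548A, 5.01% in GKT_GKGT and 2.46% in PGKTP_AAAAA, against 6.12% in WT. The K566A, Q548A and R792A_C793A libraries were above WT, and the loop mutants were below it. The log2 change of the 3p over 5p ratio was −0.67 in K566A, −0.48 in R792A_C793A, −0.41 in Q548A and 0.31 in GKT_GKGT, all short of the call, and 1.37 (1.27 to 1.47) in PGKTP_AAAAA, called higher. Part of the miR-92a-3p counts can come from the X-linked copy. The 5p arm of that copy, miR-92a-2-5p, looked up after its values were seen, was at 268 CPM in K566A but at 19.5 CPM in PGKTP_AAAAA and 7.12 CPM in WT.

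**Figure D3:**
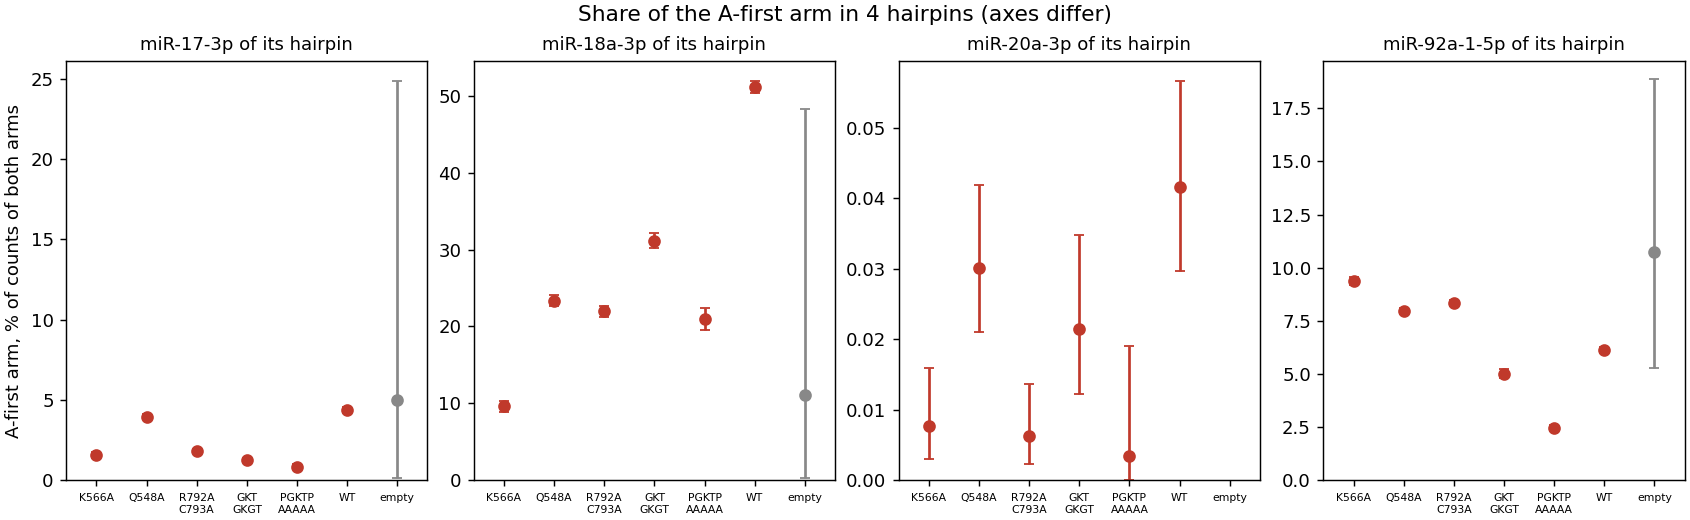
Share of the A-first arm among the counts of both arms (%, axes differ between panels) in 4 hairpins of the cluster, for the mutants, WT and the empty control; bars are 95% exact binomial intervals, and the empty control had no miR-20a-3p count and is left out there. The miR-18a-3p share is 9.60% to 31.2% in the mutants and 51.1% in WT, while the miR-92a-1-5p share is above WT in K566A, Q548A and R792A_C793A.

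The remaining hairpins were almost wholly 1-armed. miR-19a-5p had 7 counts in Q548A, none in the other mutants and 1 in WT. miR-19b-1-5p, also A-first, had 48 counts in K566A, 20 in R792A_C793A, 29 in Q548A, 9 in GKT_GKGT and 0 in PGKTP_AAAAA, against 6 counts in WT. Its sequence in RefSeq is given for comparison with the other A-first arms, with the seed in capitals.
mmu-miR-19b-1-5p: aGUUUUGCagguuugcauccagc
Part of the miR-19b-3p counts can come from the X-linked copy. In K566A the 3p over 5p ratio of the miR-19b-1 hairpin was called lower, with a log2 change of −3.32 (−4.94 to −2.19). There its A-first arm had a larger share than in WT, as miR-92a-1-5p had without a call, whereas the A-first arms of miR-17, miR-18a and miR-20a had a smaller one.

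The loop mutants were compared with each other, as GKT_GKGT over PGKTP_AAAAA. Of the 9 arms tested, 1 was called higher, miR-18a-3p at a log2 ratio of 1.13 (1.01 to 1.25), and none lower, beside 25.5% of all miRNAs called higher and 5.93% lower. With size factors miR-18a-3p was at 0.68 and not called, and miR-92a-3p, at −0.90 in CPM, was at −1.34 and called lower. The guide over A-first ratio of all 4 hairpins was lower in GKT_GKGT, by a median of −0.92 on the log2 scale beside −0.31 over all 404 hairpins, without any of them being called, beside 5.45% of all hairpins called higher and 16.6% lower. The miR-92a-1 hairpin came closest, with a log2 change of −1.06 (−1.17 to −0.95). The A-first share was therefore higher in GKT_GKGT than in PGKTP_AAAAA in all 4 hairpins, by less than the call requires; for miR-20a the interval included no change.

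The same seeds are found in 9 paralogous guides, made mainly from the miR-106a-363 cluster on the X chromosome and the miR-106b-25 cluster in an intron of Mcm7. All 9 exceeded 10 CPM. In K566A, 7 of them were called higher and 1 lower, and in R792A_C793A 3 higher and none lower. In GKT_GKGT 1 was higher and 2 lower, and in PGKTP_AAAAA 2 were higher and none lower. None was called in Q548A. Of all miRNAs tested, 47.5% were called higher and 19.6% lower in K566A, and 15.7% and 6.82% in R792A_C793A. The shares were 1.78% and 4.45% in Q548A, 11% and 11.9% in GKT_GKGT, and 7.12% and 33.5% in PGKTP_AAAAA. The sequences of 6 paralogs described below follow, from RefSeq, with the seed in capitals.
mmu-miR-18b-5p: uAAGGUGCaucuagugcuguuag
mmu-miR-93-5p: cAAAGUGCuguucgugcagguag
mmu-miR-106b-5p: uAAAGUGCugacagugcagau
mmu-miR-92b-3p: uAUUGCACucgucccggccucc
mmu-miR-25-3p: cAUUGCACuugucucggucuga
mmu-miR-363-3p: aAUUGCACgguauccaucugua
miR-92b-3p differs from miR-92a-3p by U10C and G21C over the bases both have, and has 1 base more. It had 1516 CPM in K566A, 5064 in R792A_C793A, 4519 in Q548A, 3775 in GKT_GKGT and 8159 in PGKTP_AAAAA, against 3767 CPM in WT. It was the only paralog called lower in K566A (log2 ratio −1.31), where miR-92a-3p was called higher at 2.03, so the ratio of miR-92b-3p to miR-92a-3p was 0.301 in K566A against 3.05 in WT.

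miR-25-3p differs from miR-92a-3p by U1C, C14U and C18U over the bases both have, and has 1 base more. It was called higher in K566A (log2 ratio 3.02) and in PGKTP_AAAAA (1.03). Its ratio to miR-92a-3p was 3.97 in K566A, 1.71 in R792A_C793A, 2.74 in Q548A, 2.17 in GKT_GKGT and 3.24 in PGKTP_AAAAA, against 1.999 in WT. The ratio was thus above WT in every mutant but R792A_C793A. Of this pair, miR-25-3p begins with C and miR-92a-3p with U. miR-363-3p, which shares the seed but begins with A, was called higher in K566A (2.45) and in R792A_C793A (1.20). It was called lower in GKT_GKGT (−1.04) and was at 0.57 in Q548A and −0.32 in PGKTP_AAAAA.

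In the miR-17 family, miR-93-5p, which begins with C as miR-17-5p does, was at a log2 ratio of 0.79 in K566A and not called, whereas the C-first miR-20b-5p (2.63) and miR-106a-5p (2.71) were. These are closer to the U-first miR-20a-5p (2.59) than to miR-17-5p (1.43), although miR-106a-5p differs from miR-17-5p by U10A alone. The U-first miR-106b-5p, which differs from miR-20a-5p by U10G, U12C and G20A over the bases both have and is 2 bases shorter, was called lower in GKT_GKGT at −1.11, where miR-20a-5p was at 0.57. In the miR-18 family, miR-18b-5p, which differs from miR-18a-5p by A18U and A20U, had the higher ratio to WT in each mutant, from 0.69 in PGKTP_AAAAA to 3.22 in K566A. Their ratio, miR-18a-5p over miR-18b-5p, was 0.153 in K566A and 0.216 to 0.2495 in the other mutants, against 0.268 in WT.

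**Figure D4:**
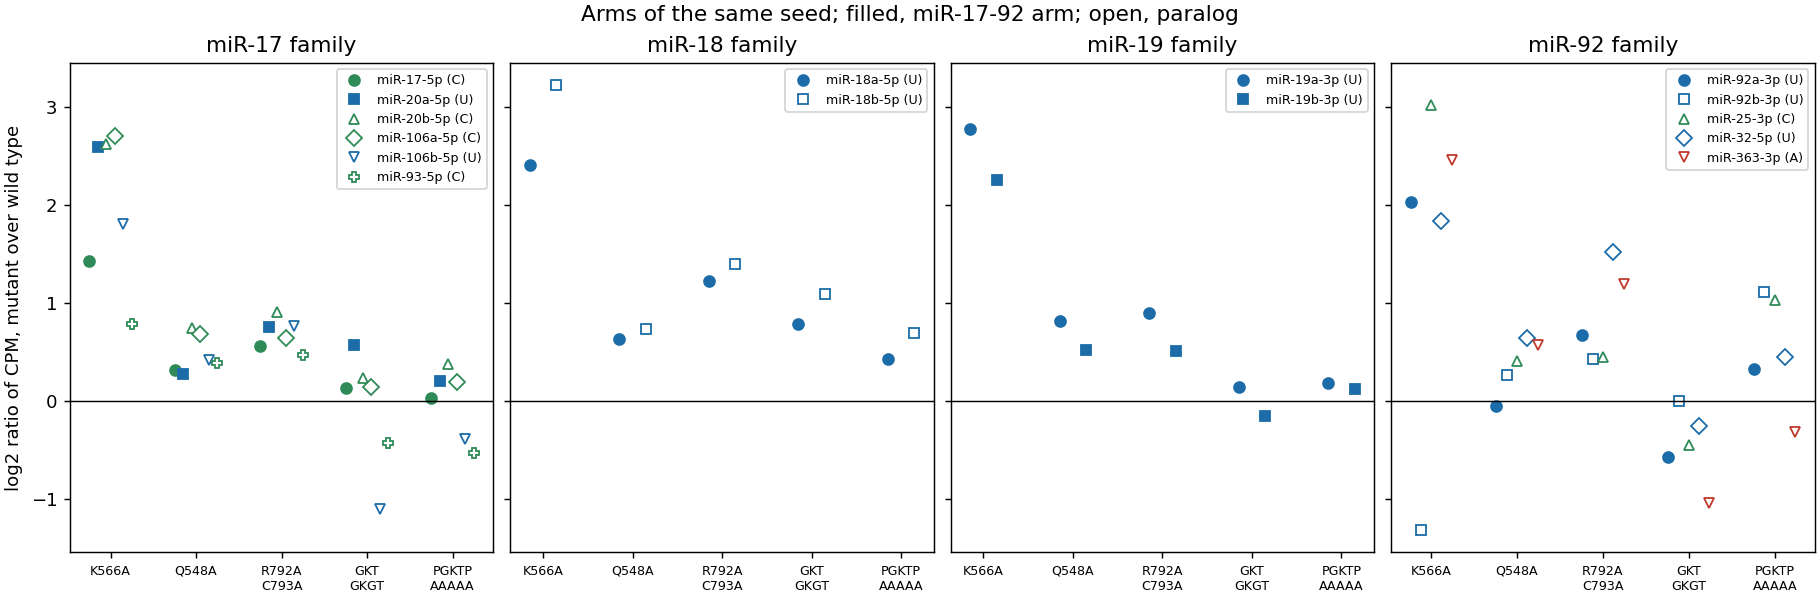
Log2 ratio of CPM, mutant over WT, for arms that share a seed, 1 panel per seed family; filled points are miR-17-92 arms and open points paralogs, coloured by first base (in brackets in the legends). In K566A the C-first arms of the miR-17 family range from 0.79 (miR-93-5p) to 2.71 (miR-106a-5p), and miR-92b-3p at −1.31 is the one point below 0.

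The empty control gives the background of the pulldown. The arms together had 3179 CPM in WT and 5260 CPM (176 counts) in the empty control, so in CPM the cluster was not enriched in WT over empty (log2 ratio −0.73, −0.94 to −0.50). For single arms, miR-92a-3p was at 1235 CPM in WT and 2480.5 CPM in the empty control (83 counts), with a log2 ratio of −1.01 (−1.32 to −0.68), and miR-92a-1-5p at 80.5 CPM in WT and 299 CPM in the empty control (10 counts), at −1.89 (−2.77 to −0.83). No arm of the 10 was past 2-fold over its whole interval. miR-19a-3p and miR-20a-3p had 0 counts in the empty control, where 3 counts, the limit taken for a count of 0, correspond to 89.7 CPM. CPM values do not show how much RNA was recovered in each pulldown.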

How the data were processed

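Small RNAs bound to Flag-Ago2 were sequenced in 7 libraries, 1 per group. The authors deposited unnormalized counts at 1078 loci of mature miRNAs. The submitters' processing notes name CASAVA 1.8.2, TopHat2 2.0.9 and mm9. Not given in the sources used here are the counting program, the annotation release, the handling of multiply matching reads and the use of strand. Of 64 names with several loci and counts, 55 had equal counts within 1% or 3 counts, so the highest locus of each name was kept and 9 names were merged into an identical one, leaving 950. Counts were divided by each library's total (CPM).

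Ratios between libraries have exact conditional 95% intervals. Levels were tested for 337 miRNAs averaging 10 CPM or more across the 6 Ago2 libraries, and arm ratios for 404 hairpins with at least 100 counts, as odds ratios with exact conditional intervals, or Woolf's where all counts reached 500. Log2 arm ratios have a pseudocount of 0.5. Reads carry no molecular identifiers, so intervals and floors (3 counts) cover counting error only. No p-value was computed with 1 library per group. The profile distance is the root of the summed squares over mean-centred log2 CPM of 6 libraries. The calls were tested on simulated Poisson counts drawn from the WT proportions. Such counts hold no variation between libraries, so they check the arithmetic of the intervals only. Named are all members, their other arms, 9 paralogs with the same seed, and the 3 miRNAs nearest to miR-92a-3p and to miR-17-5p; the members and lists were chosen with earlier results of these data known, and the other arms of paralogs after their values were seen. Scaling, locus choice, filter, fold, pseudocount, background subtraction and reference library were varied. Python 3.11.15, scipy 1.17.1 and pandas 2.3.3 were used.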

Additional observations from a re-analysis of the deposited data

How the results depend on the processing

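Each group is 1 library, so leaving out a replicate is not possible. No paired analysis was possible because the groups have 1 library each and carry no replicate numbers. The scaling changed several counts of calls. With median-of-ratios size factors, 1 arm was called lower in K566A, 0 higher and 1 lower in R792A_C793A, and 1 lower in PGKTP_AAAAA; GKT_GKGT over PGKTP_AAAAA had 0 higher and 1 lower. With totals that leave out miR-292-5p, 2 arms were called lower in K566A, 0 higher in R792A_C793A and 1 higher in GKT_GKGT. The K566A count called higher was 6 and 5 under these scalings, against 7 in CPM. With intervals past 1.5-fold, 1 arm was lower in K566A, 2 higher in Q548A, 5 higher and 2 lower in R792A_C793A, and 1 higher and 2 lower in GKT_GKGT. The log2 ratio of the summed arms to WT, from CPM 2.17 in K566A, 0.68 in R792A_C793A, 0.17 in Q548A, 0.05 in GKT_GKGT and 0.18 in PGKTP_AAAAA, was 1.33, 0.32, 0.069, 0.23 and 0.80 in the same order with size factors, 1.06, 0.45, 0.23, 0.35 and 0.43 without miR-292-5p, and 2.25, 0.69, 0.27, 0.37 and 0.064 without the 2 arms that have a second locus. Counts of hairpins called did not change when loci were summed or the empty control's counts were taken off. Against the median of the other Ago2 libraries in place of WT, 6 of 20 arm changes turned. Of these, 3 had been called: miR-18a in Q548A (−0.11) and GKT_GKGT (−0.69), and miR-17 in R792A_C793A (−0.21). A further 4 called changes kept their sign but came under 2-fold: miR-17 in K566A (0.21) and GKT_GKGT (0.54), and miR-18a in R792A_C793A (0.11) and PGKTP_AAAAA (0.20). A pseudocount of 5 kept the sign of all 20 arm changes, with miR-20a in PGKTP_AAAAA at 1.19 in place of 3.04. The same change of reference turned the sign of 13 of 50 single-arm ratios to WT, none of them called; the causes were not tested. Depth limits miR-20a-3p, miR-19a-5p and miR-19b-1-5p, and every value of the empty control.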

Other observations

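The partner arms of the paralogous guides were looked up after their values were seen. Some of them are named above, beside miR-92a-1-5p and in the account of the miR-92a-1 hairpin. They are in none of the counts of members or paralogs called. miR-106b-3p, a C-first arm made from the miR-106b-25 cluster, had 7990 CPM in GKT_GKGT, 1470 in K566A, 1227 in PGKTP_AAAAA, 329 in R792A_C793A and 195 in Q548A, against 1507 CPM in WT. It was called higher in GKT_GKGT, with a log2 ratio of 2.41, and lower in R792A_C793A (−2.20) and Q548A (−2.95). miR-363-5p was also called higher in GKT_GKGT, at 368 CPM against 84.8 CPM in WT, and in K566A, at 419 CPM. miR-93-3p, an A-first arm, was called lower in both loop mutants, with 4.71 CPM in GKT_GKGT and 2.33 CPM in PGKTP_AAAAA, against 17.7 CPM in WT, as miR-17-3p was. The A-first miR-25-5p and miR-92b-5p were not called lower in either loop mutant. In PGKTP_AAAAA the A-first miR-92a-2-5p was called higher (1.45) and the U-first miR-18b-3p lower (−2.19). In GKT_GKGT neither of these was called. Of all miRNAs tested, 11.9% were called lower in GKT_GKGT and 33.5% in PGKTP_AAAAA. With 1 library a group, none of these differences has a replicate check.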
